A study of Mus musculus with 4 samples.

Results

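The paired immunoglobulin-like receptors are a family of immune receptors encoded mostly on mouse chromosome 7, close to Cnot3, the gene targeted in this study. The group described here took every gene in the library tables whose name begins with Pira, Pirb, Lilra or Lilrb, and kept the 10 or fewer with the highest mean level. That gave 10 of the 23312 genes listed, and all 10 were kept: Lilrb3, Lilra6, Pira11, Lilrb4, Pira6, Pira7, Pira2, Lilra5, Pira4 and Pira1. The family was chosen by measured values, the higher FPKM of Pira6, Pira11 and Lilra6 in Cnot3 fl/fl libraries, so its genotype values, and the calls of the fit over all genes, are given only as a description and support nothing by themselves. In the files' mm9 locus column 9 of the 10 lie on chromosome 7, whereas Lilrb4 lies on chromosome 10 from 51210780 to 51216417 and so is not beside Cnot3.

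RNA was sequenced from pro-B cells, which are early B-lineage cells, sorted as B220+CD43+ cells from the bone marrow of C57BL/6 mice. One group was Cnot3(fl/fl) RERTCre, with loxP-flanked alleles of Cnot3, and the other was Cnot3(+/+) RERTCre, with wild-type alleles. Both groups carried the tamoxifen-inducible Cre recombinase and both received 1 mg tamoxifen on days 1, 2, 4 and 7, with analysis on day 10. There were 2 libraries per genotype, described in the design text as individual replicates, and no label gives the sex or age of the mice.

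Paired receptors are families in which activating and inhibitory proteins with similar extracellular immunoglobulin domains act against each other. The PIR-A proteins carry a short tail and signal through the Fc receptor gamma chain, an adaptor with an activation motif. PIR-B has a long tail with inhibitory motifs that recruit tyrosine phosphatases. Both bind MHC class I molecules. They are known from B cells, dendritic cells and myeloid cells, in which PIR-B restrains activation. Mouse PIR-B is encoded by the gene called Lilrb3 in the files and Pirb in RefSeq, and the PIR-A proteins by the Pira genes and Lilra6, for which RefSeq lists the synonym Pira3.

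Several chromosome 7 genes of this family share stretches of sequence, and this similarity reaches their promoters. RefSeq (GRCm38.p6) held promoters for 5 of the 10 members. Those of Lilrb3, Pira1, Pira2 and Lilra6 are shown because these nearly identical stretches lie before genes listed at very unlike levels. Lilrb3 was the most abundant member, Lilra6 and Pira2 were higher in Cnot3 fl/fl, and Pira1 was listed close to 0. Reads shared between near copies could be assigned to either, so a value near 0 for Pira1 need not mean that it was silent. Each sequence is a 140-base stretch written 5′ to 3′ on the minus strand of chromosome 7, ending between 50 and 80 bases before the annotated start. Capitals mark matches to GAGGAA, the core of sites for PU.1-type ETS factors, or to its reverse complement TTCCTC.
Lilrb3 (Pirb), chr7:3720433-3720572: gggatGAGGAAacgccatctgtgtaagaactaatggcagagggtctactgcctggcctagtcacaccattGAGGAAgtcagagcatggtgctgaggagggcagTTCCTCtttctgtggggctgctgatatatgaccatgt
Pira1, chr7:3739968-3740107: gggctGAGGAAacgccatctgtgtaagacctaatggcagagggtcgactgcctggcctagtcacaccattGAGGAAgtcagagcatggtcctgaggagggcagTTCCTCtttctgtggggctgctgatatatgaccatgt
Pira2, chr7:3845130-3845269: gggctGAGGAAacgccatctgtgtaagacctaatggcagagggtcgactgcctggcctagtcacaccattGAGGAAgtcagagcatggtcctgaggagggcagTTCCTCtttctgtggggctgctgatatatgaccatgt
Lilra6, chr7:3915582-3915721: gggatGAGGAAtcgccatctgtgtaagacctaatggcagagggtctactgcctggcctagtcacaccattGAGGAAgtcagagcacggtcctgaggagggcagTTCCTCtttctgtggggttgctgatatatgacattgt

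The stretches of Pira1 and Pira2 were identical over all 140 bases. That of Lilrb3 differed from them at 4 positions and from that of Lilra6 at 7. Counted from 1 at the 5′ end, the substitutions from Lilrb3 to Lilra6 were A12T, A29C, T86C, G90C, C121T, C136A and A137T, and none fell in a GAGGAA match. In the whole 300-base promoter, from 250 bases before the start to 50 after it, each of these 4 genes held 3 matches to GAGGAA on either strand, and the promoter of Lilra5 held 1. At least 1 match was present in 28.3% of the 32851 promoters in the RefSeq table. CCAAT was present in 37.4% of them, and an interferon-response type motif, a pair of GAAA repeats with 2 bases between them, in 3.44%, and both had 0 matches in the 5 promoters. TTGCNNAA, a C/EBP-type motif present in 10.8%, had 1 match in Lilra5 and 0 in the other 4.

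Transcripts of some members share identical stretches too. Of the 10 members, 6 could be matched to GENCODE M21 transcripts (GRCm38), and the longest transcript of each was cut into overlapping windows of 50 bases. Of the windows of Pira2, 83.7% also occurred in Pira1, 32.1% in Gm14548, 22.9% in Lilrb3 and 12.5% in Lilra6. Gm14548 is a gene of the same cluster whose name the selection did not take. In all, 91.0% of the windows of Pira2, 86.5% of those of Pira1, 27.3% of those of Lilrb3 and 23.3% of those of Lilra6 occurred in another gene searched.

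The chromosome 10 member stood apart in sequence. Lilrb4, which encodes the inhibitory receptor gp49B, shared 27.6% of its windows with its neighbour Gp49a, which encodes the activating gp49A, and 0% with any chromosome 7 gene searched. Lilra5 shared no window with any gene searched, and neither did Cnot3. Reads that fall in shared stretches can belong to several genes, so the split of the signal among Pira1, Pira2, Lilra6 and their copies depends on how the authors' software divided such reads. Pira4, Pira6, Pira7 and Pira11 could not be matched by name to a RefSeq or GENCODE entry, so their sequence was not analysed here. They are called activating by their names alone.

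**Figure D1:**
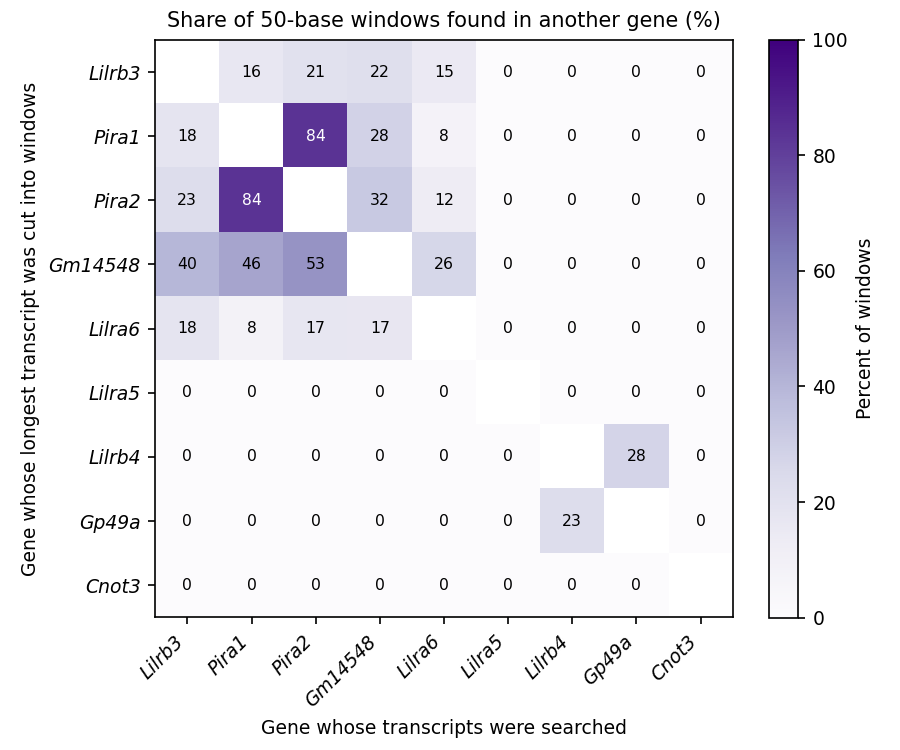
Share of 50-base windows of the longest transcript of each gene (rows) that also occur in transcripts of another gene (columns), in percent. The block formed by Lilrb3, Pira1, Pira2, Gm14548 and Lilra6 shares sequence, with 83.7% between Pira1 and Pira2, and Lilrb4 shares windows with Gp49a alone.

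Before the values of the family, the libraries themselves were checked. The files give FPKM (fragments scaled to transcript length and to all mapped fragments) and no counts, so the absolute depth is unknown. Steps between the lowest values gave relative depths between 0.748 and 1, with Cnot3 +/+ replicate 1 the shallowest. That library also differed from the other 3 in sex-linked transcripts, with Xist at 0.0242 FPKM against 54.3 to 63.1 FPKM and Ddx3y at 16.0 FPKM against at most 0.0093 FPKM. Cnot3 was at 39.0 and 40.3 FPKM with Cnot3 fl/fl, against 41.6 and 39.3 FPKM with Cnot3 +/+, and the genotypes overlapped. The labels do not locate the loxP sites, so a level over the whole gene is no check on the genotype labels.

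The inhibitory receptor gene Lilrb3 had the highest level of the family in every library. Replicates 1 and 2 had 56.4 and 54.0 FPKM with Cnot3 fl/fl, against 62.5 and 64.0 FPKM with Cnot3 +/+, the order used throughout. The genotypes did not overlap and lay close together, with means of 55.2 ± 1.64 and 63.3 ± 1.05 FPKM (SD, n = 2 each). The log2 difference was -0.19. Like all log2 differences here it is Cnot3 fl/fl minus Cnot3 +/+ in log2(FPKM + 1) units, and for low genes this understates a change. The level of Lilrb3 was above that of 92.7% to 94.3% of all genes listed.

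The more abundant activating genes had the opposite order. Lilra6 was at 22.2 and 15.7 FPKM with Cnot3 fl/fl, against 3.74 and 3.80 FPKM with Cnot3 +/+. The groups did not overlap, and the ratio of mean levels was 5.03, with a log2 difference of 2.04. Cnot3 fl/fl replicate 1 was the highest of the 4, while the Cnot3 +/+ libraries nearly coincided.

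Pira11 was at 14.4 and 12.5 FPKM with Cnot3 fl/fl, against 2.15 and 1.40 FPKM with Cnot3 +/+. The lowest Cnot3 fl/fl library was well above the highest Cnot3 +/+ library, with a ratio of mean levels of 7.58 and a log2 difference of 2.39. Pira6 was at 7.73 and 7.11 FPKM with Cnot3 fl/fl, against 0.0612 and 0.307 FPKM with Cnot3 +/+. The ratio of mean levels was 40.4 and the log2 difference 2.84. The ratio rests on Cnot3 +/+ values close to 0 and the log2 difference moved with the pseudocount, to 4.88 with 0.1 and to 1.26 with 5. With 5 it lay below the values of Pira11 and Lilra6, 1.45 and 1.44.

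Other activating genes were low. Pira7 was at 2.93 and 2.14 FPKM with Cnot3 fl/fl, against 4.15 and 3.02 FPKM with Cnot3 +/+, a log2 difference of -0.37, so its order was the reverse of that of Lilra6 and Pira11. Pira2 was at 1.78 and 1.09 against 0.426 and 0.453 FPKM, a ratio of mean levels of 3.27. Lilra5, a distant activating relative, reached 0.107 and 0.0409 FPKM with Cnot3 fl/fl and was listed at 0 in both Cnot3 +/+ libraries. Pira4 and Pira1 were listed at 3.28e-05 FPKM or less in every library, which is 0 for any practical purpose. Both are listed under a locus shared with other members, so such a value need not mean that no transcript was present. In the authors' deposited table the entry of Pira4 also names Pira7, which has an entry of its own as well.

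Lilrb4, the inhibitory member on chromosome 10, was at 8.62 and 5.56 FPKM with Cnot3 fl/fl, against 1.73 and 1.40 FPKM with Cnot3 +/+. The groups did not overlap, with a ratio of mean levels of 4.52 and a log2 difference of 1.63. It thus had the same order as Lilra6, Pira11 and Pira6, and the opposite order to Lilrb3. Within each class, activating or inhibitory, both orders occurred. Among inhibitory genes the lower order was that of Lilrb3, which did not pass (log2 difference -0.19, limma adjusted p = 0.14). Among activating genes the lower order was that of Pira7. Pira7 did not pass (log2 difference -0.37, limma adjusted p = 0.26), and Pira4 and Pira1 were listed too close to 0 for an order to be read. These genes are listed under a locus shared with other members, so their values depend on how shared reads were divided. Whether direction followed the class therefore cannot be decided from these values.

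In order of mean level over the 4 libraries, the family ran from Lilrb3 through Lilra6, Pira11, Lilrb4, Pira6, Pira7 and Pira2 to Lilra5, Pira4 and Pira1. In Cnot3 +/+ libraries the order differed, with Pira7 and Lilra6, at 3.58 ± 0.799 and 3.77 ± 0.0392 FPKM (SD, n = 2 each), not apart beyond their spread. Pira11 and Lilrb4, at 1.77 ± 0.535 and 1.57 ± 0.236 FPKM, did not differ beyond it either. In Cnot3 fl/fl libraries Lilrb4 and Pira6 overlapped, at 7.09 ± 2.16 and 7.42 ± 0.439 FPKM.

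**Figure D2:**
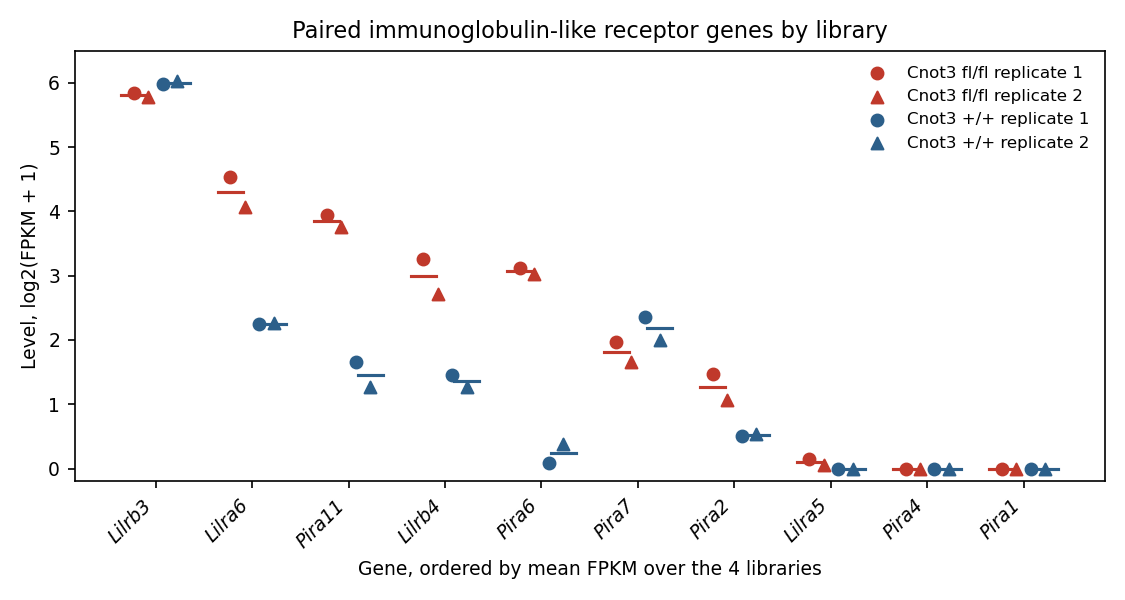
Level of each family member in the 4 libraries on the log2(FPKM + 1) scale, with Cnot3 fl/fl in red, Cnot3 +/+ in blue and short lines at the mean of the 2 libraries. Lilra6, Pira11, Lilrb4 and Pira6 are separated by genotype by 1.63 or more on this scale, whereas Lilrb3 and Pira7 lie slightly lower in Cnot3 fl/fl.

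In the fit over all genes, 6 members had a mean of at least 1 FPKM and were tested, and 4 did not (Pira2, Lilra5, Pira4 and Pira1). Pira6 would not have reached this mean on its Cnot3 +/+ libraries alone. Of the 6, limma called 4 higher in Cnot3 fl/fl (Lilra6, Pira11, Lilrb4 and Pira6), where 6.22% of the 11017 genes tested were called higher, and it called 0 lower, where the share was 3.28%. At an unadjusted p under 0.05, 4 were higher and 1 lower. Because the genotype contrast served to choose the group, nothing is read from these counts. Both Cnot3 fl/fl libraries lay above both Cnot3 +/+ libraries in those 4 and below them in Lilrb3 and Pira7. The groups were separated in this way for 32.7% of tested genes upward and 31.7% downward. The authors' deposited table marked the same 4 members as significant, where it marked 4.08% of the genes it tested as significant and higher in Cnot3 fl/fl and 6.59% as significant in either direction. Pira2 and Lilra5, not tested, also had both Cnot3 fl/fl libraries on top, as did 20.1% of all genes listed, a share that counts genes at 0 in every library.

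Most of these calls were lost when 1 library was left out. Without Cnot3 fl/fl replicate 1, Cnot3 fl/fl replicate 2 or Cnot3 +/+ replicate 1 the number of members called higher was 0, and without Cnot3 +/+ replicate 2 it was 1 (Pira6). Over all genes tested, between 2 and 18 were called higher in these same fits. The size of the differences was less affected: the log2 difference of Pira6 stayed between 2.69 and 2.99, that of Pira11 between 2.19 and 2.59, that of Lilra6 between 1.8 and 2.28 and that of Lilrb4 between 1.36 and 1.91. In bulk RNA, a change in the number of cells that carry a transcript and a change in its amount per cell cannot be told apart.

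Of the family, 6 members share 1 entry in the locus column, chromosome 7 from 3788411 to 3867103 (mm9, 78.7 kb): Lilra6, Pira11, Pira7, Pira2, Pira4 and Pira1. Gm14548 is the only other gene listed there. The summed level of the 6 members is less exposed to how shared reads were divided among them than the single values are, although FPKM of transcripts of unequal length do not add exactly. This sum was 41.4 and 31.3 FPKM with Cnot3 fl/fl, against 10.5 and 8.67 FPKM with Cnot3 +/+. It was higher in both Cnot3 fl/fl libraries, with a ratio of means of 3.80, and adding Gm14548 gave 3.52.

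The division of that sum differed between genotypes. Lilra6 and Pira11 took 53.7% and 34.9% of it in Cnot3 fl/fl replicate 1 and 50% and 39.7% in replicate 2. In Cnot3 +/+ replicates 1 and 2 Lilra6 took 35.7% and 43.8%, and Pira11 20.6% and 16.1%. Pira7 took 7.07% and 6.83% in Cnot3 fl/fl libraries and 39.6% and 34.8% in Cnot3 +/+ libraries. Gm14548 was at 1.52 FPKM in Cnot3 +/+ replicate 2 and at most 0.00126 FPKM in the other 3 libraries.

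**Figure D3:**
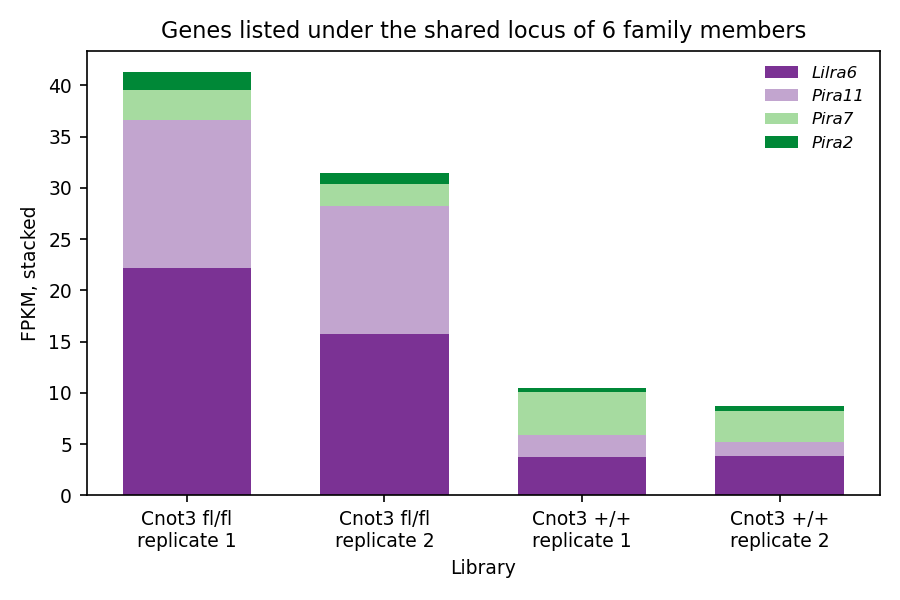
Stacked FPKM of Lilra6, Pira11, Pira7 and Pira2, listed under the shared locus, by library, with Gm14548 not drawn. The 6 members sum to 41.4 and 31.3 FPKM with Cnot3 fl/fl, against 10.5 and 8.67 FPKM with Cnot3 +/+, and Pira4 and Pira1 are too low to show.

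The 8 genes classed as activating by name (Pira and Lilra) summed to 49.2 and 38.5 FPKM with Cnot3 fl/fl. With Cnot3 +/+ the sum was 10.5 and 8.97 FPKM, a ratio of means of 4.50. Lilrb3 alone made up 49.3% and 55.1% of the summed level of all 10 members in Cnot3 fl/fl libraries, against 83.6% and 86.1% in Cnot3 +/+ libraries.

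The members on chromosome 7 begin 67.2 kb (Lilrb3), 191.5 kb (the shared locus), 592.5 kb (Lilra5) and 628.9 kb (Pira6) after the start of Cnot3, which the files place from 3596870 to 3629155 (mm9). Pira6 is listed from 4225744 to 4234530, between Lilra5 and the natural killer receptor gene Ncr1. In the RefSeq table of GRCm38.p6 the only entry between those genes is Gm15931, a pseudogene. No header says whether starts count from 0 or 1.

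Other genes around Cnot3 were examined by the same fit. Of 48 other genes starting within 1 Mb, 23 were tested, of which 2 rose, 2 fell and 19 did not pass, and the share called was 17.4%, where 9.49% of all tested genes were called. Their median log2 difference was 0.14, against -0.009 over all genes tested. Myadm, which encodes a myeloid-associated membrane protein, rose from 29.4 and 25.4 to 54.9 and 56.6 FPKM (log2 difference 1.00, standard error 0.10, limma adjusted p = 0.024). Mboat7, a lysophospholipid acyltransferase gene and the next gene after the Cnot3 entry, rose from 22.7 and 22.0 to 33.3 and 40.0 FPKM (limma adjusted p = 0.041).

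Ndufa3, a respiratory complex I subunit gene, fell from 303.1 and 308.8 to 163.7 and 185.3 FPKM (limma adjusted p = 0.035). Eps8l1, an actin regulator gene, was at 3.89 and 13.6 FPKM in Cnot3 +/+ and listed at 0 in each of the Cnot3 fl/fl libraries (limma adjusted p = 0.042). It reached the minimum mean only through its Cnot3 +/+ libraries. Leng1 and Tmc4 share the locus entry of Cnot3 and had log2 differences of 0.11 and -0.10. The genes nearest to Cnot3 on the other side, Prpf31 and Tfpt, had log2 differences of 0.04 and 0.38 and did not pass (limma adjusted p = 0.83 and 0.099), nor did Tsen34, next after Mboat7, at 0.16 (limma adjusted p = 0.50). Lair1, an inhibitory collagen receptor gene that lies between the shared locus and Lilra5, was at 138.2 and 150.3 against 167.2 and 148.2 FPKM, and the genotypes overlapped. With 1 library left out, the number called was 1 without Cnot3 +/+ replicate 1 (Eps8l1) and 0 without any one of the other 3.

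**Figure D4:**
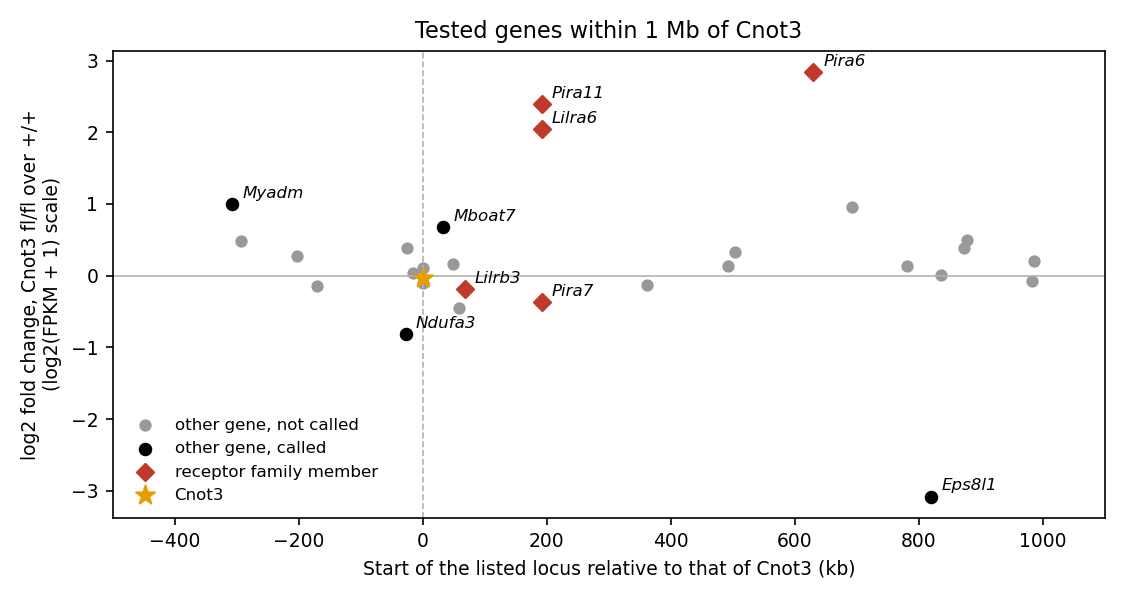
Log2 difference of tested genes within 1 Mb of Cnot3 against the start of their listed locus relative to that of Cnot3, in kb. Family members (red) range from -0.37 for Pira7 to 2.84 for Pira6, and genes at 1.00 or under in size include all neighbours tested except Eps8l1 at -3.08.

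Signalling partners of the receptors ranged in mean level in Cnot3 +/+ from 3.94 FPKM for Card9 to 3195.7 FPKM for Tyrobp. Fcer1g, the gamma chain through which PIR-A signals, was at 438.0 and 448.8 FPKM with Cnot3 fl/fl, against 456.2 and 490.6 FPKM with Cnot3 +/+, and did not pass (log2 difference -0.09, limma adjusted p = 0.56). Tyrobp, a related adaptor gene, had a log2 difference of -0.16 and the kinase gene Syk one of 0.01. Of 17 partner genes, all tested, 5 rose, 0 fell (1 was lower at an unadjusted p under 0.05) and 12 did not pass, where 6.22% of all tested genes were called higher and 3.28% lower. Their median log2 difference was 0.20 against -0.009 over all genes. The number called was 2 in a fit without the mean-variance trend and 0 with no filter on low values.

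Those that rose encode enzymes and an adaptor of the activating and inhibitory arms. Ptpn6, which encodes SHP-1, the phosphatase recruited by PIR-B, rose from 523.4 and 481.2 to 851.2 and 881.4 FPKM (log2 difference 0.79, limma adjusted p = 0.040). Inpp5d, the inositol phosphatase gene SHIP1, rose from 118.4 ± 3.45 to 168.2 ± 8.26 FPKM (SD, n = 2 each; limma adjusted p = 0.042). The kinase genes Lyn, which phosphorylates the motifs of PIR-B, and Btk rose with log2 differences of 0.57 and 0.61 (limma adjusted p = 0.036 and 0.040). Card9, an adaptor of activating myeloid receptors, rose from 3.94 to 11.7 FPKM on average (log2 difference 1.36, limma adjusted p = 0.019).

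Ptpn11, the other SHP phosphatase gene, was at 22.4 against 26.4 FPKM on average and did not pass (log2 difference -0.23, limma adjusted p = 0.11). Btk and Card9 were also significant in the authors' deposited table, which marked no other partner gene. Without any one of the 4 libraries, 0 of the 17 passed.

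No ligand gene passed the test. Of 14 listed ligand genes 10 were tested, and limma called 0, where 9.49% of all tested genes were called in either direction. With 10 genes tested, 0 calls is not far from that share. At an unadjusted p under 0.05, 1 was higher, and 0 were significant in the authors' deposited table. The median log2 difference was 0.01. The highest levels were those of B2m, which encodes the light chain of MHC class I molecules, and of the class I heavy chain genes H2-K1 and H2-D1, with Cnot3 fl/fl means of 2881.7, 2267.0 and 1751.4 FPKM, against 3311.3, 2002.4 and 1895.9 FPKM with Cnot3 +/+ (log2 differences -0.19, 0.19 and -0.11). H2-L and H2-Q6 were listed near 0, and such class I genes also share much sequence with each other. Among other known ligands of PIR-B, Rtn4 (Nogo) was at 40.7 and 39.3 FPKM and Angptl2 at 1.92 and 1.00 FPKM on average, whereas Mag and Omg stayed under the minimum. The integrin genes Itgav and Itgb3, which form a ligand of gp49B, had log2 differences of -0.32 and -0.33 and did not pass.

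In other families of paired receptors, 44 genes were listed, 43 were in the files and 17 were tested. Of these 1 rose, 1 fell and 15 did not pass, where 9.49% of all tested genes were called in either direction, and the median log2 difference was 0.09. The number called was 1 without the mean-variance trend, 4 with a robust fit and 0 with no filter on low values. Cd33, a sialic acid receptor gene, rose from 3.45 and 4.57 to 19.8 and 21.3 FPKM (log2 difference 2.11, limma adjusted p = 0.019). Fcrla, an Fc receptor-like gene of B cells, fell from 152.0 and 128.6 to 77.2 and 89.3 FPKM (limma adjusted p = 0.042). Lair1, Sirpa and Fcrla had the highest levels, and Sirpa had a log2 difference of -0.11. Gp49a, the chromosome 10 neighbour of Lilrb4, was at 4.04 and 2.50 against 0.79 and 1.19 FPKM and did not pass (log2 difference 1.08, limma adjusted p = 0.059), whereas the authors' deposited table marked it as significant. Without Cnot3 +/+ replicate 2 the number called was 1 (Cd33), and without any one of the other libraries 0.

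**Figure D5:**
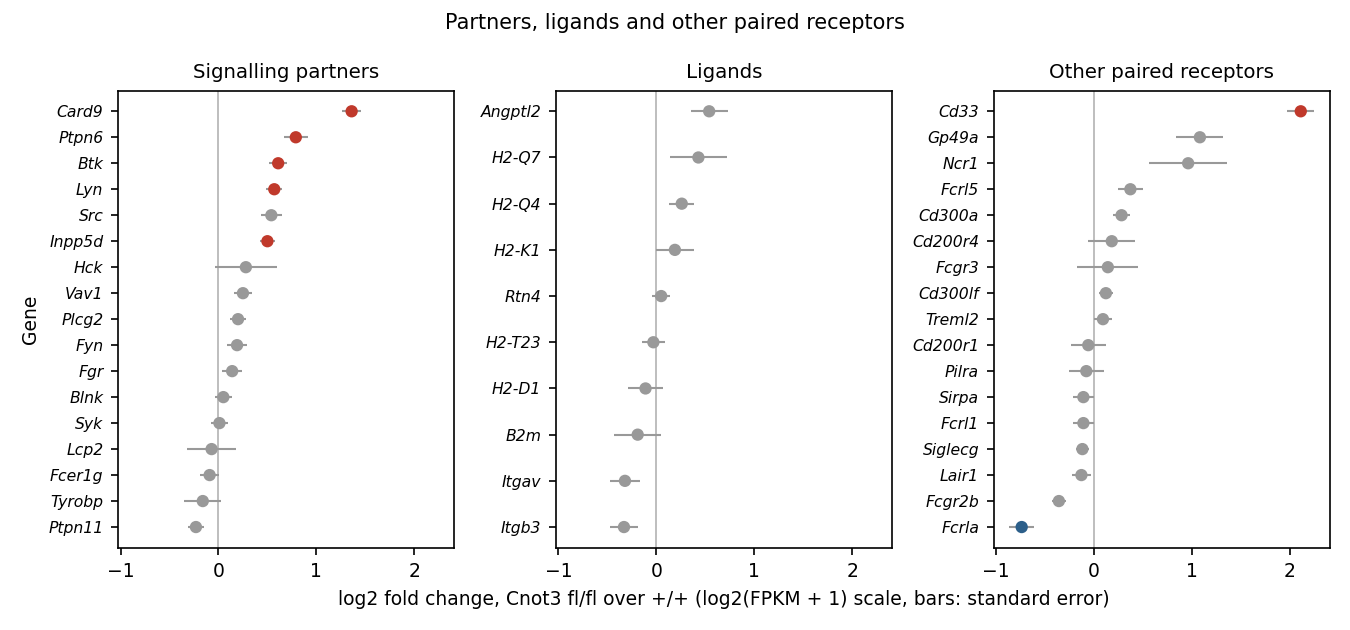
Log2 difference (points) with its standard error (bars) for tested signalling partners, ligands and other paired receptors, with genes called higher in red and lower in blue. Of the signalling partners 5 of 17 are red, of the ligands 0 of 10 are coloured, and among the other receptors Cd33 is the 1 red and Fcrla the 1 blue point.

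Genes whose profile over the 4 libraries was most like that of Lilrb3 differed from it by a root mean square of 0.00216 to 0.00861 in centred log2(FPKM + 1) values. They were BC029722, B3gnt2, Gfpt1, Zfp28 and Nuak2, with log2 differences between -0.20 and -0.18. For Lilra6, a reference chosen after its values were seen, the closest were Snora43, Ifitm6, Amz1, Fut7 and Bzrap1, at 0.0616 to 0.159. Snora43, listed at 0 in both Cnot3 +/+ libraries, encodes a small nucleolar RNA, a class without a poly(A) tail. Ifitm6 was at 10.3 and 8.75 against 1.23 and 1.57 FPKM and Fut7, a fucosyltransferase gene, at 9.44 and 8.93 against 1.58 and 1.71 FPKM. With 4 libraries such likeness is a description only.

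Markers of the cells that could carry these receptors moved with the family in part. The counts below stand against 6.22% of all tested genes called higher and 3.28% called lower. The sorted libraries held B-lineage transcripts, with Cd79b and Blnk at 206.6 and 171.4 FPKM on average in Cnot3 +/+, and also plasmacytoid dendritic cell transcripts at higher levels, with Bst2 at 3195.3 and Irf8 at 1994.9 FPKM. Of 9 B-lineage markers 0 rose and 5 fell, among them Pax5 and Igll1, and their summed level was 490.2 to 503.4 FPKM in Cnot3 fl/fl and 703.5 to 1016.3 FPKM in Cnot3 +/+ libraries. Of 10 plasmacytoid dendritic cell markers 1 rose (Tlr7) and 1 fell (Cox6a2), with sums of 8519.7 to 10030.0 against 10247.0 to 10708.5 FPKM.

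Of 8 classical dendritic cell markers 7 were tested, of which 2 rose (Zbtb46 and Clec9a) and 1 fell (Clec10a), and the sums were 572.3 to 727.0 against 493.5 to 502.0 FPKM. Zbtb46 was at 0.715 and 0.599 FPKM in Cnot3 +/+ and reached the minimum mean only through its Cnot3 fl/fl libraries. The most abundant classical dendritic cell markers were Flt3 and Clec10a. Of 12 monocyte and macrophage markers 11 were in the files and 8 were tested, of which 3 rose (Cx3cr1, Ms4a6c and Cd14) and 0 fell, with sums of 1194.2 to 1423.2 against 852.6 to 1079.4 FPKM. Most of that sum was Ly6c2, which plasmacytoid dendritic cells also express, followed by Ccr2. Ms4a6c was at 71.7 and 64.2 against 17.0 and 20.4 FPKM and Cx3cr1 at 10.2 and 10.9 against 1.27 and 1.89 FPKM. Of 12 neutrophil markers 11 were in the files and 8 were tested, 1 rose (Elane) and 0 fell, with sums of 149.6 to 223.9 against 158.5 to 210.6 FPKM.

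The remaining lists had 0 calls in either direction: T and NK cells (8 tested), erythroid cells (3), eosinophils (2) and mast cells and basophils (1, with 5 of 7 markers under 1 FPKM in every library). At an unadjusted p under 0.05, 1 mast cell and basophil marker was higher, and the authors' deposited table marked 1 T and NK gene, Ncr1, as higher. That table also marked 7 of 9 B-lineage genes it tested as lower. It marked 4 of 9 monocyte and macrophage, 3 of 7 classical dendritic cell and 1 of 10 neutrophil genes as higher. Of 10 plasmacytoid dendritic cell genes it marked 1 higher and 1 lower. Its shares over all genes it tested were 4.08% higher and 6.59% in either direction. No marker in any list was at 0 in all 4 libraries. The part of the monocyte and dendritic cell markers in the levels of Lilra6, Pira11, Pira6 and Lilrb4 was not tested.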

How the data were processed

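RNA was sequenced from 2 Cnot3 fl/fl and 2 Cnot3 +/+ libraries of B220+CD43+ pro-B cells with a stranded mRNA kit, per the labels' protocols. Versions given in the submitters' processing notes are 2.0.13 for TopHat2, 2.2.3.0 for Bowtie2, 2.2.1 for both Cuffnorm and Cufflinks, and 1.8.4 for bcl2fastq, with mm9 as the build. How those tools were run is unknown. Each library has a deposited table of FPKM values by gene, per the file headers. The authors' deposited comparison table holds p-values and q-values by gene, per the file headers.

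Here log2(FPKM + 1) values of the 11017 genes whose mean reached 1 FPKM were fitted with limma 3.58.1 in R 4.3.3 (two-sided, mean-variance trend, genotype only, 2 residual and 2.69 prior degrees of freedom). Calls were made at a Benjamini-Hochberg adjusted p under 0.05 over all genes tested, and the fit was tested on simulated data. Errors are SD over 2 libraries unless named as standard errors. Members and lists were chosen with earlier results of these data known. Named genes were all members, the called genes and 3 most abundant genes of each list, called and nearest neighbours of Cnot3, and 5 genes of closest profile. A few others (Syk, Ptpn11, H2-L, H2-Q6, Rtn4, Angptl2, Mag, Omg, Itgav, Itgb3, Gp49a, Leng1 and Tmc4) were named for their role or place, with their values seen. The summed locus was an alternative added after the values were seen.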

Additional observations from a re-analysis of the deposited data

How the results depend on the processing

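The direction of each of the 6 tested members was the same under every alternative that could be computed. These were pseudocounts of 0.1 and 5, quantile normalization, equal median ratios, a minimum mean of 5 FPKM or none, a fit with no trend, a robust fit, the replicate block, and each library left out. The genotypes did not overlap in any of the 6, so only quantile normalization and equal median ratios could have reversed a direction. Little can therefore be read from the unchanged directions. With no filter on low values, 16296 genes were tested, 4 genes in all were higher and 1 lower, and 0 members, 0 signalling partners, 0 other paired receptors and 0 neighbours of Cnot3 were called. A minimum of 5 FPKM left 3 members tested and 2 called higher. Without the trend 2 signalling partners, 1 other paired receptor and 2 neighbours were called, and with the robust fit 4 other paired receptors. With 1 library left out, members called higher numbered 0 to 1, other paired receptors 0 to 1, neighbours 0 to 1 and signalling partners 0 in each case. Members called lower and ligands called were 0 in every setting. With the replicate block, 4 members, 4 signalling partners, 2 other paired receptors and 5 neighbours were called. The labels' replicate numbers were not taken as pairs, since nothing says that equal numbers share a litter or day, and the deviations of equally numbered libraries correlated at 0.14 over genes. The causes of these changes were not tested. Depth is unknown, so how far it limits the low members is unknown as well.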

Other observations

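Of the other paired receptors, 26 were in the files but too low to be tested. Both Cnot3 fl/fl libraries lay above both Cnot3 +/+ libraries in 11 of them and below in 1, and the genotypes overlapped in 14. Those named here were picked after their values were seen. Trem2 was the 1 with the lower order, at 0.0448 and 0 against 0.171 and 0.283 FPKM. Cd300lb, an activating receptor gene of myeloid cells, was at 1.52 and 1.26 FPKM with Cnot3 fl/fl, against 0.334 and 0.0816 FPKM with Cnot3 +/+, and the authors' deposited table marked it as significant. Tarm1, an activating receptor gene that lies before Cnot3 on chromosome 7, was at 0.314 and 0.0994 FPKM with Cnot3 fl/fl, against 0 and 0.0549 FPKM with Cnot3 +/+. Treml4 was at 0.478 and 0.306 against 0.034 and 0.198 FPKM. Over all 23312 genes listed, 20.1% had both Cnot3 fl/fl libraries above both Cnot3 +/+ libraries. That share counts genes at 0 in every library, in which the genotypes cannot be separated. Among the 11017 genes tested, which are more abundant, 32.7% lay above and 31.7% below. No share was computed for low detected genes alone, so nothing is read from the 11 and 1. Ttyh1, a membrane protein gene between Lair1 and Lilra5, was at 1.17 and 1.14 against 0.231 and 0.151 FPKM and was not tested here, and the authors' deposited table marked it as significant.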
